A study of Mus musculus with 8 samples.

Results

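The 8 genes examined here are parts of 3 signalling routes that were measured together in mouse liver: the leptin receptor gene Lepr with its neighbour Leprot and the signalling genes Jak2, Stat3 and Socs3, the adiponectin receptor genes Adipor1 and Adipor2, and Mrap2, an accessory protein of melanocortin receptors. They are 8 of 34836 gene names on the array and were found by these names. They were chosen by their signals on these same 8 arrays, so their levels and their differences between the strains are given as a description, without a test. Liver RNA came from male mice of the strain NZO/HiBomDife, New Zealand Obese mice that become obese and are prone to diabetes, and of the lean strain C57BL/6 (B6). All mice were 6 weeks of age and had been fed a diet with 45% fat, a feature that both strains share, so no value of mice on another diet stands beside them. There were 4 NZO and 4 B6 mice, with 1 array for each, and an array carried 59305 spots for 55681 probes of 60 bases.

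Leptin is a hormone of fat cells that binds a receptor encoded by Lepr. The long form of the receptor activates the kinase JAK2 and through it the transcription factor STAT3, which switches on Socs3, an inhibitor of the same route, whereas shorter forms lack most of the signalling tail. Adiponectin, a second hormone of fat cells, acts in liver through AdipoR1 and AdipoR2, membrane proteins of the PAQR family that are tied to AMPK activity, fatty acid oxidation and ceramide breakdown. MRAP2 is best known from the brain, where it supports signalling of the melanocortin 4 receptor and its loss causes obesity in mice.

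In the annotation on GRCm38.p6 Lepr (gene ID 16847) spans chr4:101717137-101815352 and begins 57773 bases after the end of Leprot (gene ID 230514, chr4:101647783-101659364). Jak2 (16452) lies on chr19:29251803-29313095, Stat3 (20848) on chr11:100886806-100939594 and Socs3 (12702) on chr11:117966079-117970336. Adipor1 (72674) is found on chr1:134415378-134433351, Adipor2 (68465) on chr6:119353150-119417699 and Mrap2 (244958) on chr9:87144236-87184051. Lepr had 4 probes, Mrap2 had 3, Stat3 had 2 and the other 5 genes had 1 each, which gives 14 probes that were kept separate. The array files place the probes on a build that they do not name and that is not GRCm38, so only distances between probes of a gene are used below.

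Lepr is the gene for which the position of a probe matters most, because the transcripts differ at their ends. The probes A_55_P2177910 and A_55_P2177911 were designed on transcript variant 2, at bases 2697 and 3158, and are shown because they were the only Lepr probes with a signal above background. The former lies in the part that codes for the receptor outside the cell, the latter in the part just inside the cell membrane, and both stretches belong to coding exons. They are written 5′ to 3′ on the strand of the transcript.
Lepr A_55_P2177910: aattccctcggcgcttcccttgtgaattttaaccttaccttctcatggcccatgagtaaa
Lepr A_55_P2177911: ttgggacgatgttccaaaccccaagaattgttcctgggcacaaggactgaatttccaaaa

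All levels are log2 of the processed signal minus the 75th percentile of the array, so that 0 marks that percentile and a step of 1 is a doubling of signal. Levels of different probes cannot be set against each other, since probes differ in how well they bind. A probe was above background on an array where the scanner software called it well above background. The 75th percentile of the processed signal ranged from 119 to 142 in NZO mice and reached 136 to 159 in B6 mice, and 50.4% to 60.1% of spots passed the call of the scanner software. The arrays of NZO mouse 007 and B6 mouse 010 stood apart in genes of skeletal muscle: the summed linear signal of Acta1, Ckm, Myh4 and Tnnt3, relative to the 75th percentile, was 16.4 in NZO 007 and 5.49 in B6 010, against 0.186 to 0.386 in the other NZO mice and 0.355 to 1.39 in the other B6 mice. The differences of the member probes and of the list and marker probes that passed the filter were therefore also computed without these 2 arrays, an alternative chosen after seeing the data. Alb, the gene of serum albumin, led the 5 hepatocyte markers, whose summed signal was 3789 to 3917 in NZO and 3002 to 3766 in B6, and of the 6 fat cell markers Adipoq, Lep and Plin1 were at background on all 8 arrays. The other 3, Cidec, Fabp4 and Car3, were above background on all 8, and their summed signal with the first 3, led by Car3, was 565 to 644 in NZO and 409 to 481 in B6. Car3 had a log2 fold change of 0.47 (SE 0.10, adjusted p = 0.0133 in limma), which is under the size limit for a call. Fabp4 went the other way, at -0.30 (adjusted p = 0.241 in limma). The Cidec probes gave 0.29 and 0.42 (adjusted p = 0.658 and 0.246 in limma). The fat cell markers thus had no common direction, and their sum mostly shows Car3. In whole liver, fewer cells of a type and less RNA per cell cannot be told apart.

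A probe entered the test when a strain had it above background in 4 of 4 mice. This held for 11 of the 14 probes, and all 8 genes had such a probe. The strains did not overlap at 5 of the 14 probes, or 3 of the 11 that passed, and 22% of all 27634 probes tested had levels without overlap. With the thresholds used for all probes, an adjusted p of 0.05 in limma and a log2 difference of 0.7, 1 of the 11 was called, an Mrap2 probe, whereas 9.62% of all probes tested were called. That probe, A_55_P2105135, passed the filter through the NZO arrays alone, with 4 NZO and 0 B6 arrays above background. The members were also chosen on this comparison. These counts, the call among them, therefore only describe the members and are no test of them.

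**Figure D1:**
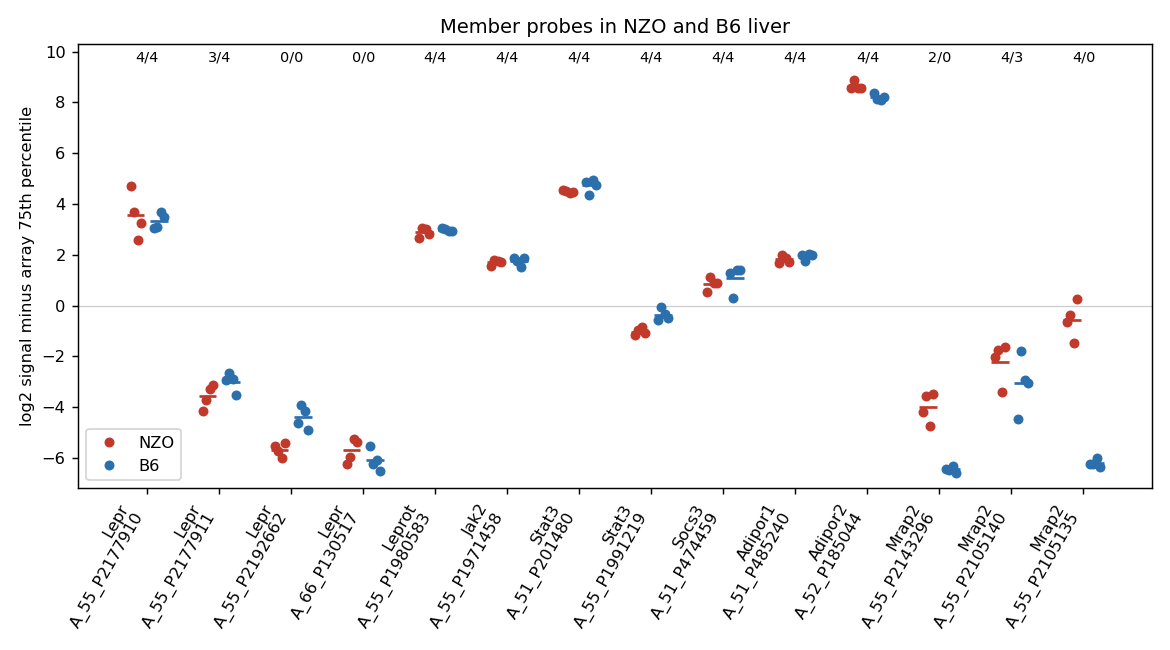
Levels of the 14 member probes as log2 signal minus the array's 75th percentile on each of the 8 arrays (points) with the strain mean (lines), NZO in red and B6 in blue. Numbers at the top give the NZO and B6 arrays above background. The strains are far apart at the Mrap2 probes A_55_P2143296 and A_55_P2105135 and close together at most other probes.

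Lepr showed no common direction over its probes. Probe A_55_P2177910 was above background on all 8 arrays, at 4.69, 3.69, 2.58 and 3.24 in NZO mice 007, 003, 009 and 011 and at 3.07, 3.09, 3.69 and 3.48 in B6 mice 011, 010, 015 and 009. The NZO mice spread on both sides of all B6 mice, with NZO 007 the highest and NZO 009 the lowest of the 8. The difference, NZO minus B6, was 0.22 on the log2 scale (SE 0.41, n = 4 and 4), with an SD of 0.89 in NZO and 0.30 in B6. It became -0.16 without NZO 007 and -0.24 without both muscle-marked arrays. It was -0.22 among the arrays of the first scan day and 1.42 among those of the second, where NZO 007 was the only NZO array. Within the slide that held both strains, which has no array of NZO 007, it was 0.30, and in the deposited values it was -0.01, so its sign was not settled.

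The second Lepr probe, A_55_P2177911, lies 11949 bases further along the gene and was above background in 3 NZO and 4 B6 mice. Its levels were -4.17, -3.70, -3.29 and -3.14 in NZO 007, 003, 009 and 011 and -2.94, -2.67, -2.90 and -3.52 in B6 011, 010, 015 and 009. The NZO mice tended to the lower end and the strains overlapped through B6 009, with a difference of -0.57 (SE 0.26) that was -0.26 without the muscle-marked arrays and -0.01 after normexp background correction. The probes designed on other transcript variants were at background on all 8 arrays: A_66_P130517, designed on variant 1, which encodes the long signalling form, ranged from -6.49 to -5.25, and A_55_P2192662, designed on variant 3, from -5.99 to -3.90. At the latter the 4 NZO values of -5.99 to -5.42 lay below the 4 B6 values of -4.92 to -3.90, but no array reached the call above background, and no fold is given. The probe designed on the long form gave no signal above background in either strain, and how well it binds was not tested. Which transcripts each Lepr probe detects was not tested either, so the signal of the first 2 probes is not assigned to variant 2.

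Leprot, whose protein retains leptin receptors inside the cell, differed by less than the spread between mice. Its probe A_55_P1980583 gave 2.66, 3.06, 3.02 and 2.81 in NZO 007, 003, 009 and 011 and 3.04, 3.0, 2.95 and 2.93 in B6 011, 010, 015 and 009. The B6 values all lay inside the NZO range, and the difference was -0.09 (SE 0.11). It was -0.01 without the muscle-marked arrays and 0.09 within the slide that held both strains.

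Among the genes that carry the leptin signal, Jak2 differed by less than the spread between mice, and both Stat3 probes had lower means in NZO. The Jak2 probe A_55_P1971458 gave 1.58 to 1.78 in NZO and 1.54 to 1.89 in B6, a difference of -0.06 (SE 0.11) that was 0.14 within the slide that held both strains. Stat3 was measured on 10 spots per array by probe A_51_P201480, designed on variant 1, with 4.55, 4.51, 4.42 and 4.48 in NZO 007, 003, 009 and 011 and 4.87, 4.37, 4.96 and 4.74 in B6 011, 010, 015 and 009. Apart from B6 010, the lowest of the 8, the B6 mice lay above all NZO mice, and the difference was -0.25 (SE 0.14), or -0.39 without the muscle-marked arrays.

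The other Stat3 probe, A_55_P1991219, was designed on variant 3 and lies 10348 bases away. It read -1.17, -0.98, -0.86 and -1.08 in NZO 007, 003, 009 and 011 and -0.58, -0.07, -0.32 and -0.50 in B6 011, 010, 015 and 009. Every NZO mouse was below every B6 mouse here, with a difference of -0.66 (SE 0.14), which is 1.57-fold higher in B6. The difference lay under the size limit of 0.7 used for calls. It was -0.33 after normexp background correction and -0.78 within the slide that held both strains.

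Socs3, the inhibitor that STAT3 switches on, did not separate the strains. Its probe A_51_P474459 gave 0.55, 1.13, 0.88 and 0.89 in NZO 007, 003, 009 and 011 and 1.30, 0.32, 1.38 and 1.40 in B6 011, 010, 015 and 009. B6 010, which had the higher muscle signal of the B6 mice, was the lowest of all 8 and lay far from the other B6 mice, which were above every NZO mouse. The difference was -0.23 (SE 0.26), and -0.39 without NZO 007 and B6 010. Among the 3 NZO and 2 B6 arrays of the first scan day it was 0.12, and among the 1 NZO and 2 B6 arrays of the second -0.80. The part of the muscle RNA in these values was not tested.

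The adiponectin receptors were both above background on all 8 arrays. Adipor1 (A_51_P485240) gave 1.69, 2.0, 1.86 and 1.73 in NZO 007, 003, 009 and 011 and 2.0, 1.75, 2.05 and 2.0 in B6 011, 010, 015 and 009, so that the strains overlapped and the difference was -0.13 (SE 0.11), or 0.11 within the slide that held both strains. Adipor2 (A_52_P185044), which encodes the receptor form most abundant in liver, gave 8.55, 8.86, 8.56 and 8.56 in NZO and 8.37, 8.12, 8.10 and 8.22 in B6, with the mice in the same order. All NZO mice were above all B6 mice, and the mean difference of 0.43 (SE 0.11) is a 1.35-fold higher signal in NZO. It was 0.43 without the muscle-marked arrays, 0.76 within the slide that held both strains, and 0.55 and 0.26 on the scan days. In the deposited values it was 0.16. Those values were not scaled between arrays, and the median of all probes was itself shifted by -0.15 in them.

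Mrap2 showed the widest separation and also a difference among its 3 probes, all designed on transcript variant 1 at bases 782, 1258 and 2015. The probe nearest the end of the transcript, A_55_P2105135, read -0.65, -0.36, -1.46 and 0.26 in NZO 007, 003, 009 and 011 and -6.22, -6.24, -6.01 and -6.34 in B6 011, 010, 015 and 009. It was above background in 4 of 4 NZO mice and in 0 of 4 B6 mice, so the fold is a lower bound. The NZO signal exceeded that of B6 by at least 13.4-fold when each B6 array was given the faintest level that still counted as above background there. The measured means were -0.55 and -6.20, but the B6 mean is a background level. Their difference is therefore no measure of the fold. After normexp correction with an offset of 50 the difference was 1.44. In the deposited raw intensities, where the background under the dim B6 spots is not removed, it was 2.05.

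The probe A_55_P2105140 lies 757 bases before it and did not separate the strains. Its levels were -2.02, -1.77, -3.39 and -1.65 in NZO 007, 003, 009 and 011 and -4.48, -1.78, -2.93 and -3.05 in B6 011, 010, 015 and 009, with 4 NZO and 3 B6 mice above background. B6 010 was within the range of the upper NZO mice and NZO 009 within that of the B6 mice, and the difference was 0.85 (SE 0.59), between 0.38 and 1.28 when single mice were left out. It was 1.22 without the muscle-marked arrays, and 0.09 and 1.75 on the scan days.

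The first probe along the gene, A_55_P2143296, lies 476 bases before the middle probe and was above background in 2 NZO and 0 B6 mice. It gave -4.18, -3.54, -4.75 and -3.47 in NZO 007, 003, 009 and 011 and -6.42, -6.46, -6.30 and -6.58 in B6 011, 010, 015 and 009. The measured values did not overlap, but 6 of the 8 were not above background, so no fold is given. At the middle probe the difference of 0.85 became 0.34 after normexp correction. In the order of the mice, NZO 009 was the lowest NZO mouse and NZO 011 the highest at A_55_P2105140 and A_55_P2105135. The same mice were lowest and highest at A_55_P2143296, but NZO 009 was not above background there, so its rank at that probe says little.

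**Figure D2:**
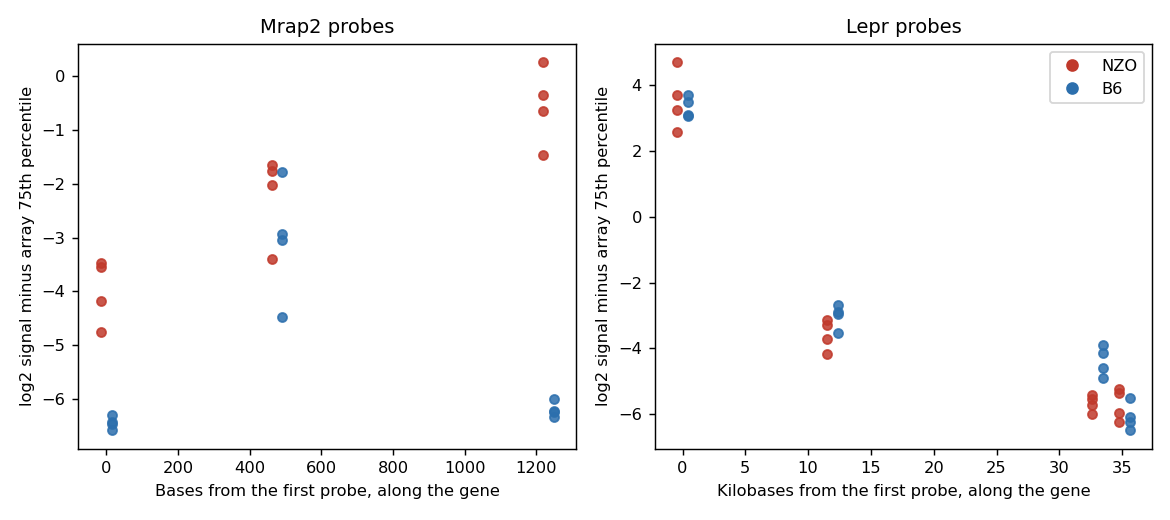
Levels (log2 signal minus the array's 75th percentile) of the 3 Mrap2 probes and the 4 Lepr probes on each array, placed by their distance from the first probe of the gene. NZO is red and B6 blue, drawn side by side. At Mrap2 the strains overlap at 476 bases and separate at 1233 bases, and at 0 bases they separate with 6 of 8 arrays not above background. Levels are to be compared between arrays for a probe, not between probes.

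The ligands and partner receptors differed in whether liver showed a signal for them. Lep (leptin) and Adipoq (adiponectin) were at background in all 8 mice, at -5.81 to -4.37 and -5.91 to -4.50. The ghrelin receptor gene Ghsr and the melanocortin receptor gene Mc3r were at background on all 8 arrays as well. Pomc, the precursor of the melanocortin peptides, and Ghrl, which encodes ghrelin, were above background in 3 NZO and 4 B6 mice each and did not pass the test (log2 fold changes 0.10 and -0.46, adjusted p = 0.9 and 0.477); they were added after their values were seen. Mc2r, the receptor for adrenocorticotropic hormone, was above background only in B6 010, at -1.32 against -6.67 to -6.06 in the other mice. Mc4r, the receptor whose signalling MRAP2 supports in the brain, was above background in 2 NZO mice and 1 B6 mouse, with -4.54 to -3.43 in NZO and -6.26 to -4.02 in B6, which overlap. Mc5r was above background in all mice and did not pass the test, with a log2 fold change of -0.09 (SE 0.47, adjusted p = 0.927 in limma), or -0.80 (adjusted p = 0.103) without the muscle-marked arrays. Mrap, the relative of Mrap2 that serves the adrenocorticotropic hormone receptor, was bright in all mice, at 4.81 to 4.95 in NZO and 4.40 to 4.70 in B6, without overlap but with an adjusted p of 0.11. Cdh13, a cell surface protein that binds adiponectin, was above background in all mice at probe A_51_P114826 (log2 fold change -0.05, adjusted p = 0.816) and at background in all mice at its other probe.

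The wider pathways were read from 8 lists of 112 genes, members left out, which were drawn up from knowledge of the pathways but with earlier results of these data known, so that their calls are no independent support. Of these, 111 were found on the array (Asip had no probe under that name) and 95 had a probe that passed the filter. At 1 or more probes 5 genes were called higher and 7 lower in NZO and 83 were called in neither direction. Among the 133 probes tested 9.77% were called, beside 9.62% of all probes, and 4.34% of all probes were called higher and 5.28% lower. The median log2 difference was 0.03 over the list probes and 0.01 over all probes. At the study's threshold without adjustment, applied to the p of limma, where 12.2% of all probes passed, 7 genes of the lists were higher and 11 lower.

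In the list of JAK-STAT signalling genes 0 of 14 tested genes were called by limma and 0 by the test named in the study's methods (Benjamini-Hochberg adjusted), 3 had an unadjusted p of 0.05 or less in limma at a probe or more, and the differences of its 21 probes lay between -0.54 and 0.62 with a median of 0.01. Of all 20153 gene names tested 32.1% had such a p, as did 27.8% of all probes. In the list of inhibitors 0 of 13 were called by limma and 0 by the test of the methods, 5 had such an unadjusted p, and the median was -0.08. This list holds Socs2, an inhibitor of growth hormone signalling, whose probe A_51_P107362 read 3.11, 3.03, 2.73 and 2.13 in NZO 007, 003, 009 and 011 and 2.30, -1.48, -0.64 and 0.85 in B6 011, 010, 015 and 009. The B6 mice spanned far more than the NZO mice, and the log2 fold change of 2.49 (SE 0.74) had an adjusted p of 0.0611. Its other tested probes gave 2.49 (adjusted p = 0.0582, without overlap) and 1.97 (adjusted p = 0.051). Without the muscle-marked arrays the first probe gave 1.79 (adjusted p = 0.185). Socs2 was called higher at a probe in 9 of 21 other settings, among them both fits with the slide as a block, the scan day as a block, normexp correction and leaving out B6 011. It is named here although the rule for named genes did not choose it, after its values were seen. Among 13 tested targets of adiponectin and ceramidases, which include Ppara and Cpt1a, 0 were called by limma and 0 by the test of the methods, 2 had an unadjusted p of 0.05 or less, and the median was 0.04.

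The list of STAT3 and leptin target genes was the part of the route with most calls: 5 of 15 tested genes were called lower and 1 higher, its 17 probes had a median of -0.67, and 41.2% of them were called. The test named in the study's methods called 3 of these genes after adjustment, Igfbp2, Igfbp1 and Junb, and not Fga, Bcl3 and Lcn2. Igfbp2, a secreted binding protein of insulin-like growth factors that leptin raises in liver, was at 2.50, 1.82, 2.73 and 0.71 in NZO 007, 003, 009 and 011 and at 5.53, 5.51, 5.18 and 5.56 in B6 011, 010, 015 and 009 at probe A_55_P2056729. Every NZO mouse was well below every B6 mouse, and the log2 fold changes were -3.51 (SE 0.40, adjusted p = 0.00069) and -3.60 (SE 0.38, adjusted p = 0.000433) at its 2 probes.

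Igfbp1, a binding protein of the same family that insulin represses, read 3.78, 3.10, 4.19 and 4.27 in NZO 007, 003, 009 and 011 and 6.08, 7.37, 7.13 and 6.21 in B6 011, 010, 015 and 009. The groups did not overlap and the log2 fold change was -2.86 (SE 0.37, adjusted p = 0.00127). Lcn2, an iron-scavenging protein of the acute phase, was at -0.68 to 0.41 in NZO and 1.13 to 4.28 in B6 (log2 fold change -2.70, SE 0.61, adjusted p = 0.0203), and B6 015 stood above the other B6 mice. Its call was lost without NZO 003, NZO 009 or NZO 011, with adjusted p of 0.0539, 0.0506 and 0.0551, and without the filter on dim probes (0.0511). Without B6 015 the change was -2.08. Junb, a subunit of the transcription factor AP-1, fell by 1.60 on the log2 scale (SE 0.21, adjusted p = 0.00129), from -2.73 to -1.75 in B6 to -3.97 to -3.66 in NZO, and its change was -0.32 after normexp correction and -0.67 in the deposited values, both under the size limit. Bcl3, a partner of NF-kappa-B, was lower by a log2 fold change of -0.96 (SE 0.19, adjusted p = 0.0103).

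Fga, the alpha chain of fibrinogen, moved the other way: probe A_51_P193813 was at 6.87 to 7.46 in NZO and 6.27 to 6.52 in B6, a log2 fold change of 0.86 (SE 0.15, adjusted p = 0.00655), and its other probe, at 0.50, was under the size limit. In the deposited values, where the median of all probes was shifted by -0.15, A_51_P193813 was at 0.69, also under it. The acute phase genes Saa1 and Saa2 had log2 fold changes of -1.26 and -1.29 and did not pass (adjusted p = 0.205 and 0.166). The strains did not overlap at any called probe of the lists, so the sign within a slide or scan day was fixed beforehand. Igfbp2 A_55_P2056729 differed by -3.53 within the slide that held both strains and by -3.59 and -3.05 on the scan days. For Igfbp1 these values were -4.15, -3.39 and -2.37. With the slide as a fixed block, a fit in which only the 1 NZO and 2 B6 arrays of that slide bear on the strains, the call at Igfbp1 stayed and the calls at the other 12 probes were lost.

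**Figure D3:**
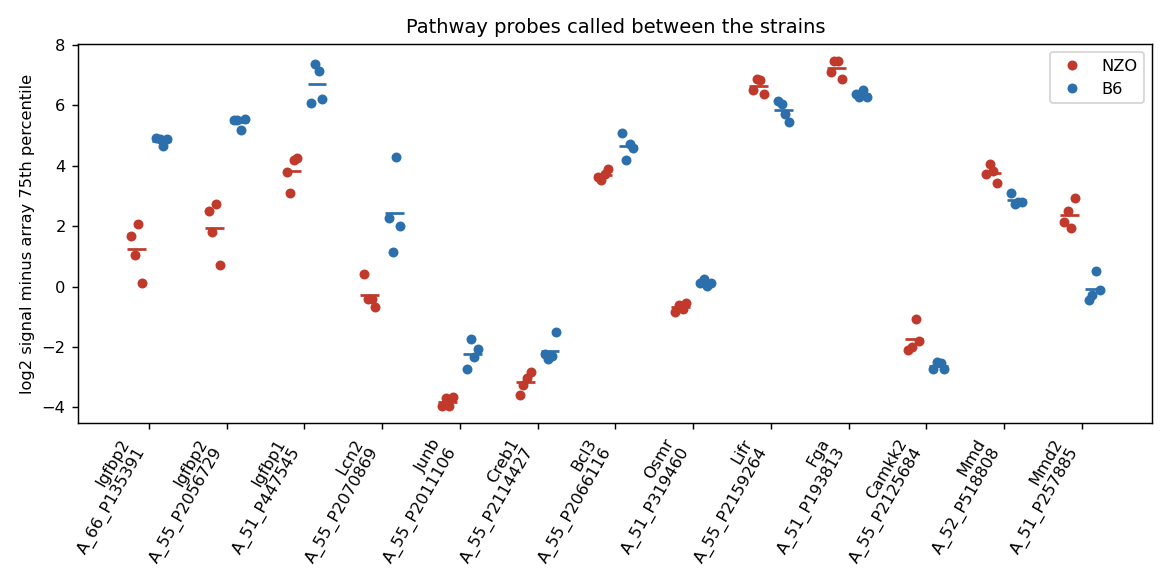
Levels of the 13 pathway probes called by limma, as log2 signal minus the array's 75th percentile, on the 4 NZO (red) and 4 B6 (blue) arrays, with strain means as lines and probes ordered by their difference. Igfbp2 and Igfbp1 show the widest gaps on the left and Mmd2 on the right, and no probe has overlapping strains.

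These changes stood beside differences in marker genes of other liver cells. The Kupffer cell genes Clec4f and Marco were called lower in NZO (log2 fold changes -1.13 and -1.83), while Vsig4 (-0.30) and Timd4 (-0.18) were not called. The summed signal of the 4 Kupffer cell markers was 37.2 to 44.8 in NZO and 64.0 to 100.4 in B6, with B6 015 the highest. The stellate cell gene Pdgfrb (-1.0), 1 of 6 tested, and the bile duct gene Sox9 (-1.47), 1 of 3 tested, were called lower too. The red cell genes Hba-a1 (1.0) and Alas2 (0.90), 2 of 4 tested, were called higher. Of the endothelial and the leukocyte markers 0 of 5 each were called. Without the muscle-marked arrays Sox9 (-1.23, adjusted p = 0.0578) and Hba-a1 (0.91, adjusted p = 0.0995) were no longer called, while the bile duct gene Krt19 (-0.93, adjusted p = 0.0149) was called lower. The muscle gene Tnnt3 was then also called lower in NZO at probe A_55_P2088375 (-2.80, adjusted p = 0.0149 in limma), and Acta1 and Myh4 were not called. The part of these cells in the values of the target genes was not tested.

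Among receptors that share JAK and STAT3, Osmr, the receptor of oncostatin M, was lower in NZO, at -0.83 to -0.55 against 0.00 to 0.25 (log2 fold change -0.80, SE 0.10, adjusted p = 0.00137). It was -0.52 after normexp correction, which is under the size limit. Lifr, the receptor of leukemia inhibitory factor, was called higher at 1 of 3 probes, A_55_P2159264, with 6.37 to 6.87 in NZO and 5.44 to 6.14 in B6 (0.82, SE 0.19, adjusted p = 0.0235). Its other probes pointed the same way, at 0.79 and 0.89, with adjusted p of 0.103 and 0.153. The call at A_55_P2159264 was lost without NZO 003, NZO 009, B6 015 or B6 009, without the filter on dim probes and with the test named in the study's methods. This call was lost in the deposited values too (0.60, adjusted p = 0.0626 in limma), where the median of all probes was shifted by -0.15. It was also lost without the muscle-marked arrays, where the change was 0.93 (adjusted p = 0.0557).

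On the adiponectin side Camkk2, a kinase upstream of AMPK, was called higher at probe A_55_P2125684 (-2.09 to -1.09 in NZO, -2.73 to -2.52 in B6, log2 fold change 0.88, SE 0.21, adjusted p = 0.029), but leaving out any of NZO 009, NZO 011, B6 011, B6 010, B6 015 or B6 009 ended the call at that probe. So did the test named in the study's methods, dropping the filter on dim probes, and leaving out the muscle-marked arrays, where the change was 1.03 (adjusted p = 0.0514). Its change was 0.41 after normexp correction and 0.32 in the deposited values, where the median of all probes was shifted by -0.15. Its other probe, A_55_P2329923, gave 3.34 to 3.94 in NZO and 2.74 to 3.23 in B6, a change of 0.70 (SE 0.17, adjusted p = 0.0312) that before rounding lay just under the size limit. Without NZO 011 (0.79, adjusted p = 0.0307) or B6 011 (0.80, adjusted p = 0.0266) this other probe was called, so that the gene stayed called there. The other 11 tested genes of that list, the AMPK subunits among them, were called in neither direction. In the PAQR family, to which the adiponectin receptors belong, 2 of 7 tested genes were called, both higher in NZO. Mmd2 was at 2.13, 2.49, 1.92 and 2.93 in NZO 007, 003, 009 and 011 and at -0.46, -0.30, 0.53 and -0.13 in B6 011, 010, 015 and 009, with a log2 fold change of 2.46 (SE 0.28, adjusted p = 0.000635). Mmd was called at 1 of 4 probes, A_52_P518808 (0.91, SE 0.15, adjusted p = 0.00539), while its other 3 probes gave -0.15, 0.16 and 0.22.

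In the list of Mrap2 partners and the melanocortin system, which runs from ligand precursors and receptors to Creb1, 1 of 12 tested genes was called. Creb1, the transcription factor that cyclic AMP activates, was lower at 1 of 2 probes, A_55_P2114427 (-3.58 to -2.82 in NZO, -2.41 to -1.51 in B6, log2 fold change -1.05, SE 0.24, adjusted p = 0.021), and its other probe gave -0.09. The call was lost without NZO 003, without the filter on dim probes and with the test named in the study's methods. Without the muscle-marked arrays it was lost at a change of -1.0 (adjusted p = 0.0546), and the change was -0.18 after normexp correction and -0.55 in the deposited values.

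**Figure D4:**
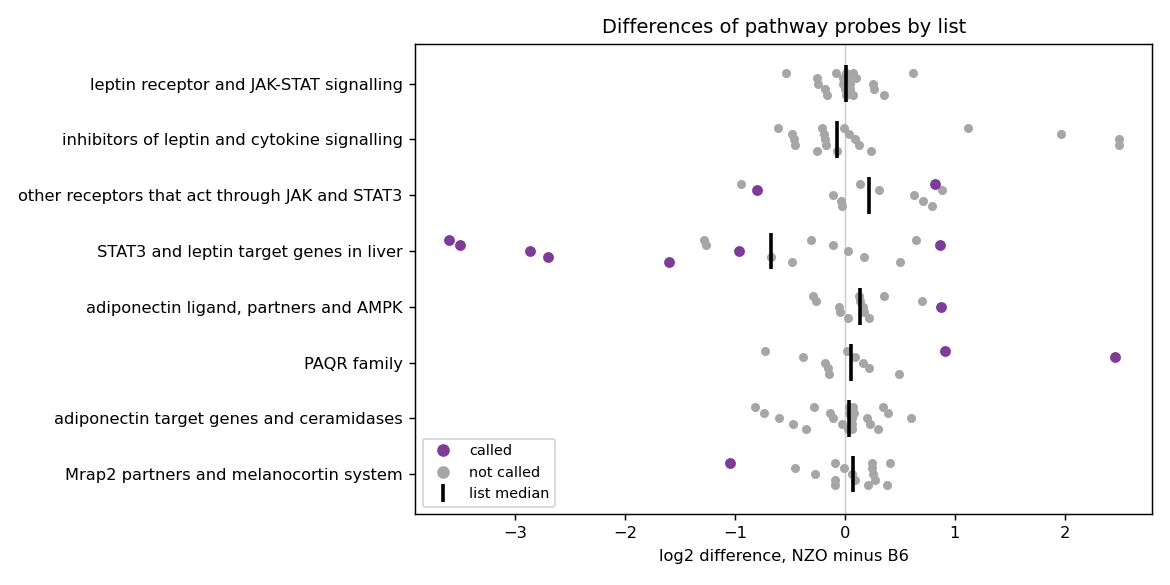
Log2 difference, NZO minus B6, of every pathway probe that passed the filter, by list. Purple points were called by limma, grey points were not, and black lines are list medians. The median of the STAT3 and leptin target genes lies at -0.67 and the medians of the other lists between -0.08 and 0.22.

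A binding sequence for STAT factors was looked for in the 250 bases before a transcript start of each gene, taken from RefSeq on GRCm38.p6. The motif TTCNNNGAA reads the same on both strands and was found in 8.13% of 27025 genes. Among the members it was found in 1 of 8, Socs3, where the start used lies inside the span given above and is not its outer end. Among the 12 of 15 target genes with a sequence it was found in 2, Fga and Fgb. The stretch of Fga (chr3:83025903-83025972, plus strand), a called gene that holds it, is shown with the motif in capitals.
Fga: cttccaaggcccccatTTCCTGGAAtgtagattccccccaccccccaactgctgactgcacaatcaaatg
The motif begins 234 bases before the start of Fga. A match describes the letters in this window and is no evidence of binding.

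Lastly, the profile of a probe over the 8 arrays, with its mean removed, was set against that of all tested probes. For Lepr A_55_P2177910, whose own values spread by a root mean square of 0.59, the closest named genes were Tpgs1 (root mean square difference 0.09), Cpne7 (0.10) and 1700028I16Rik (0.13). Like this Lepr probe they were high in NZO 007 and low in NZO 009: Tpgs1, for example, gave 4.62 and 2.59 there. Their probes shared runs of at most 5, 6 and 6 bases with this Lepr probe. The other Lepr probe with a signal, A_55_P2177911, did not have this pattern. There NZO 007 was the lowest of the 8, at -4.17 and not above background, and NZO 009 was at -3.29. For Mrap2 the rule took the probe with the highest mean over all 8 arrays, A_55_P2105140, a choice that says nothing of which probe binds best and would fall on A_55_P2105135 by the NZO arrays alone. The closest were Fdft1 (0.50), Ccdc141 (0.54) and Gm5860 (0.55), far less alike against its own spread of 0.94.

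**Figure D5:**
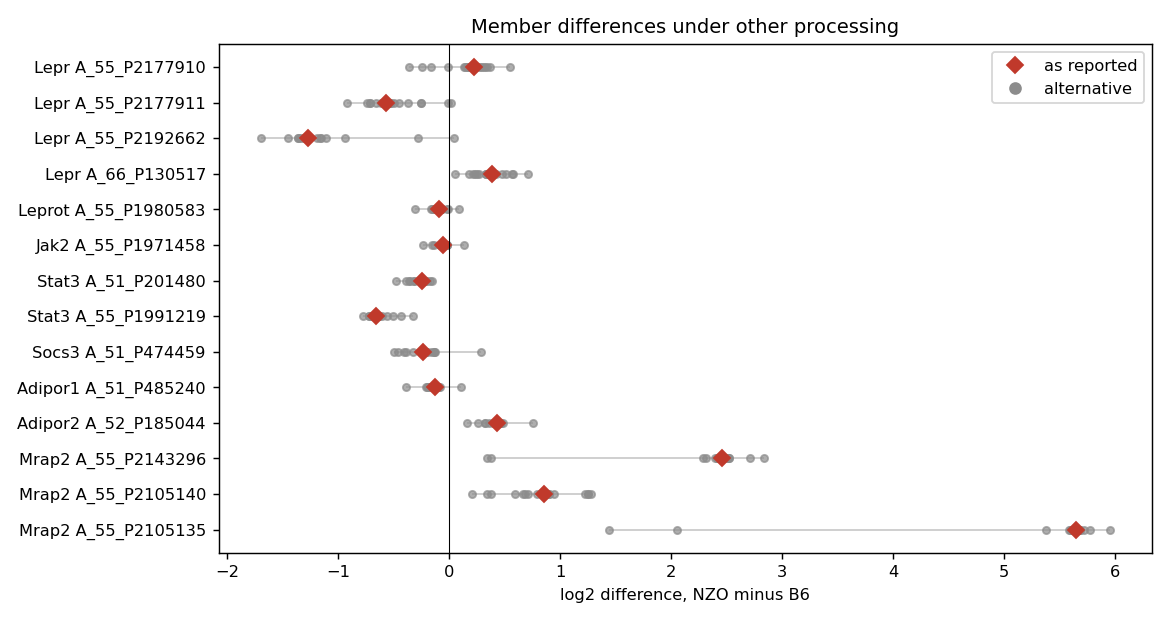
Log2 difference, NZO minus B6, of each member probe as reported (red diamonds) and under 17 other ways of processing (grey points, the range as a line). Where a strain was not above background, the difference is no fold. The lowest value is 1.44 for Mrap2 A_55_P2105135 and 0.16 for Adipor2, and the highest is -0.33 for Stat3 A_55_P1991219, while 7 of the 14 probes lie on both sides of 0, namely 3 of Lepr and those of Leprot, Jak2, Socs3 and Adipor1.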

How the data were processed

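RNA was labelled with Cy3 and hybridised to 1-colour arrays. The authors deposited the scanner output, in which the processed signal is an intensity with the background subtracted and no scaling between arrays, and a table of intensity values named as normalized, whose values were those of the raw median signal at 100% of spots (tolerance 0.01). The file headers name Agilent Feature Extraction 11.0.1.1 and the submitters' processing notes 9.1. Control spots and 96 to 137 spots per array with an outlier flag were dropped, the 75th percentile of each array's log2 processed signal was subtracted, and spots of a probe were averaged. 0 spots were saturated. Signal over background and the number of arrays limit the precision. limma 3.58.1 in R 4.3.3 (package data.table, version 1.17.8) compared the strains over 27634 probes, with calls at a Benjamini-Hochberg adjusted p up to 0.05 and a log2 fold change from 0.7 in either direction. The fit was tested on simulated data. Python 3.11.15, pandas 2.3.3 and matplotlib 3.10.9 drew the plots. The arrays lay on 5 slides, of which 1 held both strains (1 NZO, 2 B6), and were scanned on 2 days (3 NZO and 2 B6, then 1 NZO and 2 B6). The members and lists were chosen with earlier results of these data known. Named genes were all member probes, all called list genes, fixed ligands and partner receptors, and the 3 closest profiles for Lepr and Mrap2. The labels give 1 mouse per sample number. The alternatives were normexp background correction (offset 50), quantile normalization, median centring, the deposited table, other filters, slide, scan day or mouse number as a block, the methods' test with Welch correction, the unadjusted threshold and leaving out mice.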

Additional observations from a re-analysis of the deposited data

Results flagged for a closer look

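In 72 groups of 4 mice, formed by the 14 member probes and the called or fixed pathway probes in each strain, 6 groups held a mouse far from the other 3, and chance alone gives about 1 in 20 such groups. These came from 3 mice. Among the members they were B6 010 at Socs3, with a level of 0.32 against 1.30 to 1.40 in the other B6 mice, B6 010 at Adipor1, with 1.75 against 2.0 to 2.05, and NZO 003 at Adipor2, with 8.86 against 8.55 to 8.56. Among the pathway probes B6 010 was high at Mc2r, with -1.32 against -6.67 to -6.13. B6 015 was low at both Igfbp2 probes, with 5.18 against 5.51 to 5.56 and 4.64 against 4.87 to 4.92. B6 010 was also the B6 mouse with the highest skeletal muscle signal, whose part in these values was not tested.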

How the results depend on the processing

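Over all probes, 1198 were called higher and 1460 lower. The counts, higher and lower, were 615 and 583 after normexp correction and 575 and 1421 in the deposited table. They were 959 and 963 when a probe had to be above background on all 8 arrays. With the slide as a fixed block they were 497 and 987, and with the methods' Welch test 831 and 890. The deposited values were not scaled between arrays, and the median of all probes was shifted by -0.15 in them. When single mice were left out, the counts ranged from 1055 to 1219 higher and from 1221 to 1464 lower. Against 5 list genes called higher there were 3 in the deposited table (2 of them shared), 3 without a filter, 2 with the slide as a fixed block (1 shared, Lifr at another probe), 2 with the Welch test and 3 without both muscle-marked arrays, and 3 to 7 with a mouse left out (3 without NZO 009, B6 015 or B6 009). Against 7 called lower there were 4 after normexp correction, 2 with the slide as a fixed block (1 shared, Igfbp1), 4 with the Welch test and 11 at the unadjusted p, and 6 to 8 with a mouse left out. With the mouse number as a replicate block, 72 probes were called higher and 134 lower, with 0 and 0 list genes; only 2 numbers occur in both strains, their deviations correlated at -0.26 and 0.00, and the numbers were not taken to pair mice. Of 238 member differences under alternatives, 216 moved by less than 1 SD, pooled over the strains, and 22 by more. With 4 mice per strain, leaving out 1 mouse or both muscle-marked arrays cannot move a difference by more than this SD. The outcome of those settings was therefore fixed beforehand, and the count of 216 is no measure of stability. At 7 of the 14 probes the values lay on both sides of 0. Of 273 values of called list probes, 212 stayed past the thresholds, 61 did not and 0 reversed. The strains did not overlap at these probes, so leaving out mice could not reverse a sign. Settings that changed only the test, the filter or the p threshold kept the same difference and could not reverse it either. The causes were not tested.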

Other observations

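The likeness of the Lepr probe A_55_P2177910 to other probes was not limited to named genes. Of 27633 other tested probes, 58 had a profile over the 8 arrays within a root mean square difference of 0.2 of it, and 0 had one within 0.2 of Mrap2 A_55_P2105140.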
